A study of Mus musculus with 6 samples.

Results

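Integrins and the adaptor proteins that tie them to the actin cytoskeleton were followed across the cells of the fracture callus, as a set of 38 genes out of the 52081 gene identifiers that all 6 libraries share. The set held the 12 numbered α subunits, the α subunits Itgae, Itgal, Itgam, Itgav and Itgax, the 8 β subunits and 13 genes of the focal adhesion and its direct linkers, taken by gene symbol. Femoral fracture calluses of 12-week-old mice, described by the paper as male, were taken at 14 days post-fracture (dpf) and sequenced as 3′ single-cell libraries. A unique molecular identifier (UMI) stands for 1 captured transcript, and a level below is the UMIs of a gene per 1000000 UMIs of a cell class in 1 library (CPM). The 3 control libraries are labelled wt, a group described as Piezo1 f/f. The other 3 are labelled Col2CreERT; Piezo3-/-. The gene studied is nevertheless Piezo1, and the mice are described as Col2a1CreERT2; Piezo1 f/f, called Piezo1Col2a1. Piezo1 is a mechanically gated ion channel. According to the paper, both groups received tamoxifen, which activates the Cre recombinase. The deletion is thereby meant to take place in cells that express Col2a1, the collagen of cartilage. Which cells carried it at 14 dpf was not checked. These 3 libraries are called knockout libraries after their labels. The paper gives other numbers of mice in its results than in its methods, and p-values therefore measure the spread between libraries.

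An integrin is a pair of an α and a β subunit that spans the membrane and holds on to collagen, laminin, fibronectin or a protein on another cell. Talins and kindlins bind the tail of the β subunit and switch the receptor on. The complex of integrin-linked kinase, PINCH and parvin, together with vinculin, α-actinin, zyxin, paxillin and focal adhesion kinase, then joins the receptor to actin filaments and passes on signals of matrix stiffness and load. In bone and cartilage these receptors are known for anchoring chondrocytes to collagen, for the sealing zone of osteoclasts, for the attachment of vessel walls to their basement membrane and for the recruitment of leukocytes.

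The libraries held between 57626530 and 103784364 UMIs and between 2554 and 9289.5 UMIs per barcode at the median, and 41863 of 46944 barcodes were kept as cells. Clusters were called "X-like" from marker genes, and the member genes took no part in the clustering. Of the resulting classes, 19 had at least 20 cells in at least 2 libraries, from 240 erythroid-like to 5922 endothelial-like cells. Some of these names need care, since the HSPC-like cluster was led by the myeloid granule genes Elane, Prtn3 and Mpo, the marrow stromal-like cluster by Mmp9 and Gdpd2, and 1 of the fibroblast-like clusters by cell cycle genes. The pericyte-like cluster was led by Rgs5 and Myh11, with the smooth muscle genes Acta2, Tagln and Mylk also among its leading genes. It can therefore hold smooth muscle cells beside pericytes, which wrap small vessels. The 6126 stromal cells left without a name and 1041 other unnamed cells were not used. Some of them had markers of a class but more markers of another among their leading genes. The largest such cluster (3776 cells, median 870.5 UMIs) had Lyz2, Apoe, Col10a1 and Hapln1 among its leading genes. It held 1538, 62 and 195 cells in the control libraries and 1131, 567 and 283 in the knockout libraries. A cluster of 675 cells scored best for hypertrophic chondrocyte markers. Their part in the class sizes and values was not tested. Muscle-like cells (51 in all) and Schwann-like cells (29) were too few and were not compared. Chondrocyte-like cells joined with hypertrophic chondrocyte (HTC)-like cells had Col2a1 at 57955, 68317 and 27852 CPM in the control libraries and 63714, 8981 and 46427 in the knockout libraries. Knockout library 2 stood apart, with 42 such cells against 431 to 1612 in the others. Neutrophil-like cells, which should lack this collagen, had Col2a1 at 3507, 1216 and 609 CPM in the control libraries and 3181, 15.3 and 3554 in the knockout libraries. How much of this RNA was carried between droplets was not tested. Between 36 and 104 barcodes of a library also occurred in another one.

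Knockout library 3 went against the description of the mice as male. Over all its cells Xist, the RNA of the inactive X chromosome, was at 579 CPM and the Y-linked gene Ddx3y at 0, whereas the other 5 libraries had at most 0.17 CPM of Xist and between 52.4 and 123 of Ddx3y. Without it, 0 members passed in any of the 15 classes tested for genotype (edgeR), and its effect on the fold change of single members is given with their values. In chondrocyte-like and HTC-like cells Piezo1 was at 69.5, 43.4 and 55.3 CPM in the control libraries and 139.8, 46.9 and 48.6 in the knockout libraries, so it was not lower under the knockout label. A 3′ library counts transcripts whether or not the floxed exons are still in them, and these values do not check the labels.

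Most members were high in a few kinds of cells and low in the rest, and the kinds differed by role. Class means weight libraries equally. Among the 36 members with at least 50 UMIs, 13 were highest in a leukocyte or osteoclast class, 10 in pericyte-like cells, 8 in endothelial-like cells and 5 in another stromal class. The highest class mean was at least 3 times the median class mean for 30 of the 36. For 19 members the first class lay above the second in every library that held both, and for 8 of them (Itga1, Itga3, Itga6, Itga7, Itgav, Itgax, Itgb4 and Vcl) the library ranges of these classes did not overlap. Fermt1, the kindlin of epithelia, had 0 UMIs, and Itgb6, an epithelial β subunit, had 8 UMIs in all classes. Classes are clusters of the same cells, so their differences are descriptions with no test.

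**Figure D1:**
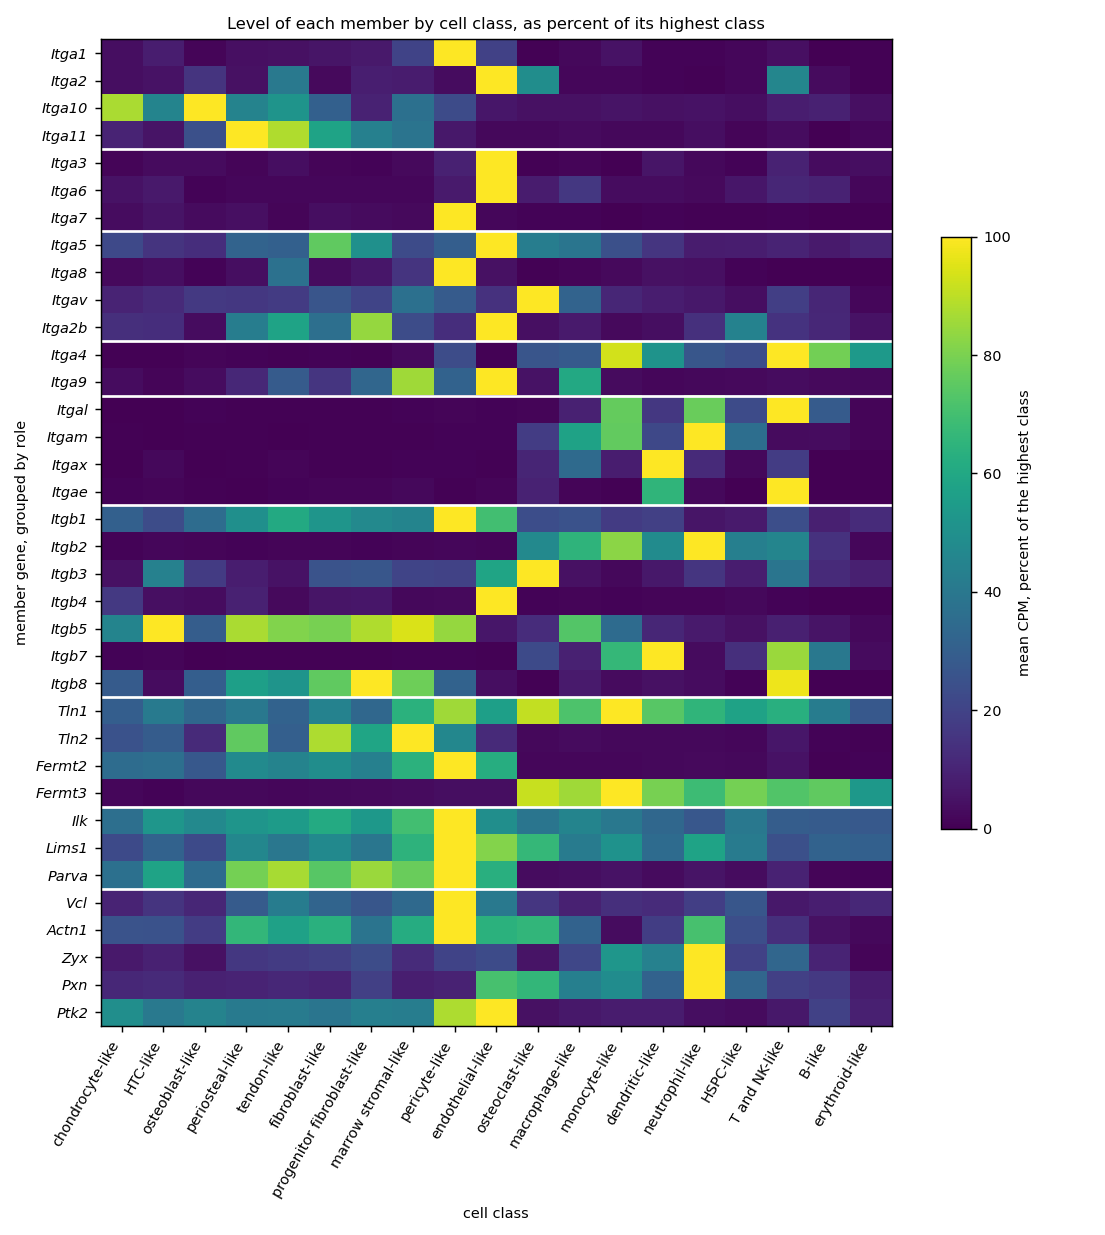
Heat map of the mean level of 36 members (rows, grouped by role between white lines) in 19 cell classes (columns), as a percentage of each gene's highest class mean. Pericyte-like and endothelial-like cells hold the highest level of most laminin-binding, adaptor and linker genes, and leukocyte subunits such as Itgam and Itgal are near 0 in the stromal classes.

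The 4 collagen-binding α subunits, partners of Itgb1, were each highest in a different class. Itga1, a receptor for collagen IV of basement membranes, was at 862, 784 and 677 CPM in the control libraries and 1036, 724 and 595 in the knockout libraries in pericyte-like cells. The next class, marrow stromal-like cells, had a mean of 156 ± 67.9 (SD, n = 6 libraries) against 779.9 ± 155, and no marrow stromal-like library reached the lowest pericyte-like one. Itga2, which lies next to Itga1 on chromosome 13 and binds collagen I, had its highest level in endothelial-like cells.

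There Itga2 was at 78.2, 45.2 and 71.2 CPM in the control libraries and 80.4, 76.7 and 42.9 in the knockout libraries. Osteoclast-like cells followed at 25.9, 27.1 and 31.4 CPM in the control libraries and 67.0, 28.6 and 13.4 in the knockout libraries, which was below endothelial-like cells in 6 of 6 libraries although the ranges overlap.

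Itga10 and Itga11 were highest in skeletal classes. Itga10, which binds collagen II and marks cartilage, was at 169, 124 and 175 CPM in the control libraries and 157, 96.8 and 101 in the knockout libraries in osteoblast-like cells. Chondrocyte-like cells had Itga10 at 128, 97.4 and 154 CPM in the control libraries and 156, 85.1 and 98.7 in the knockout libraries, lower than osteoblast-like cells in 6 of 6 libraries but with overlapping ranges. The median class mean of Itga10 was 12.4 CPM, so both classes stood well above the leukocytes. Itga11, a receptor for collagen I on mesenchymal cells, was instead highest in periosteal-like cells, with 230.3, 157 and 201 CPM in the control libraries and 224, 98.7 and 113 in the knockout libraries. Tendon-like cells, present in 3 libraries, had Itga11 at 239.5 and 125 CPM in control libraries 1 and 2 and 85.9 in knockout library 3, and these did not differ from the periosteal-like cells beyond their spread. In chondrocyte-like cells the Itga11 mean was 17.0 ± 5.90 (n = 6 libraries).

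**Figure D2:**
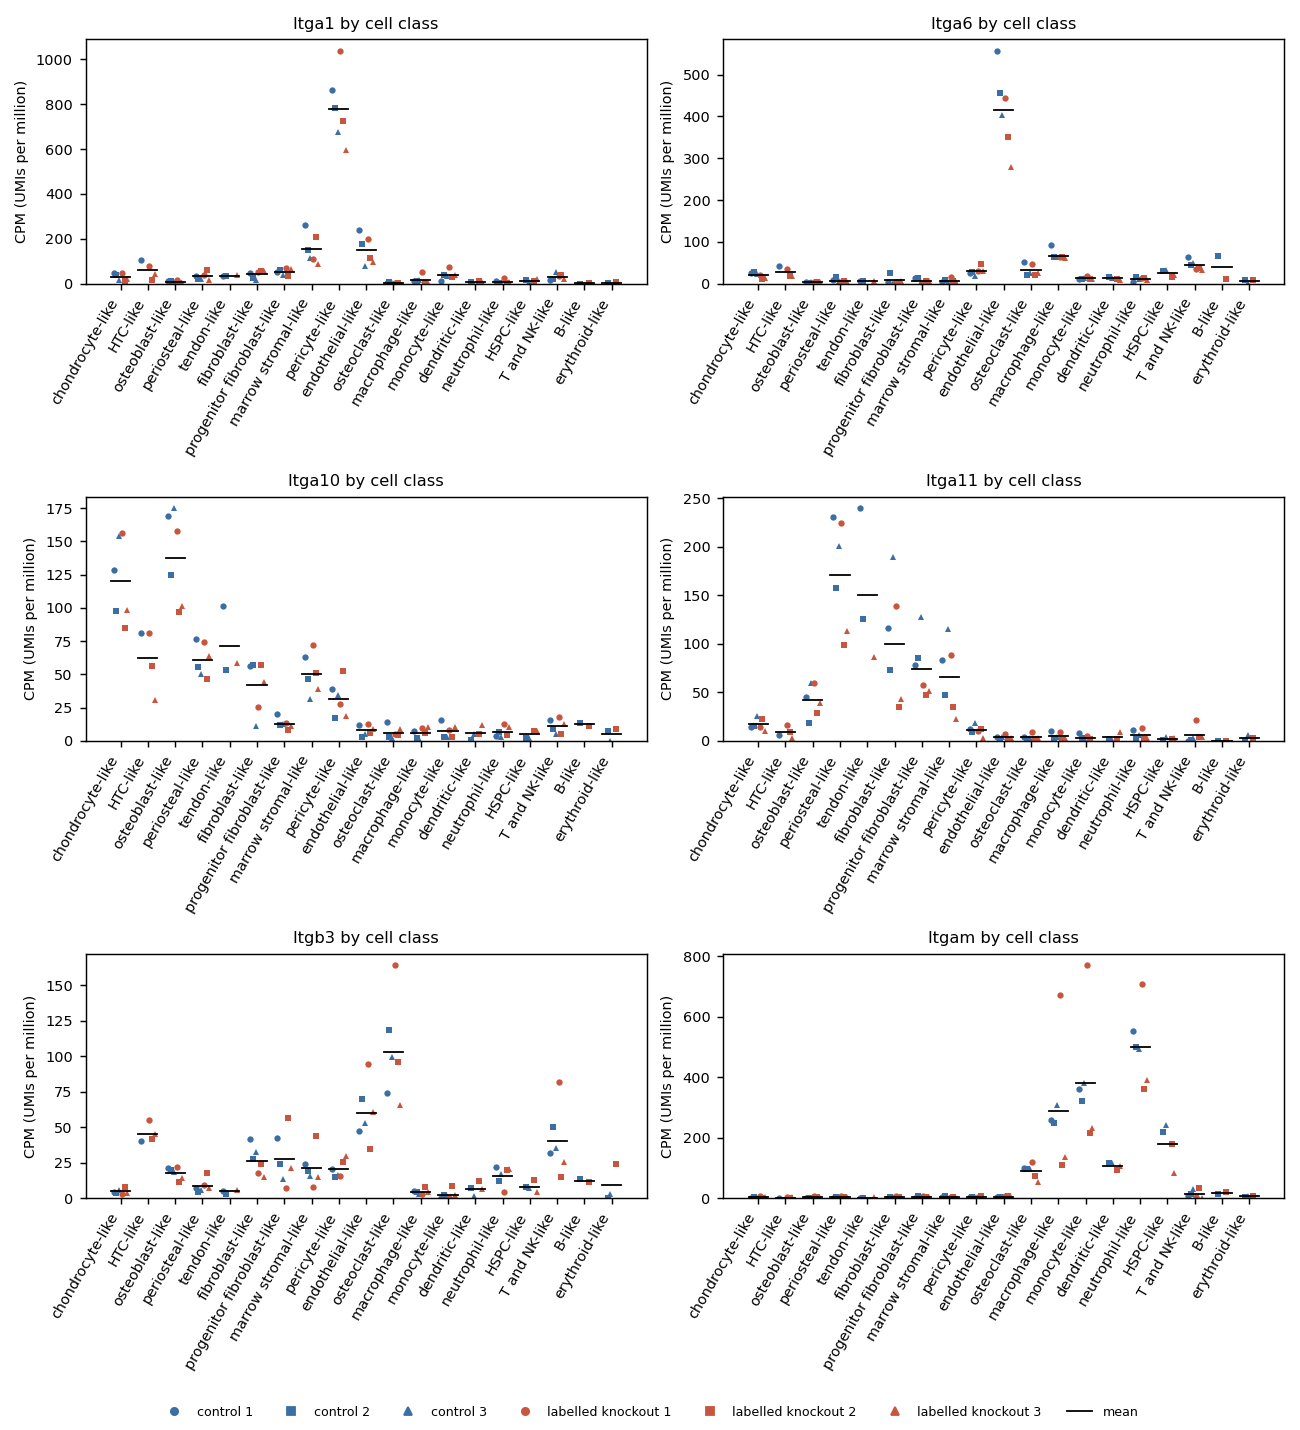
Levels of Itga1, Itga6, Itga10, Itga11, Itgb3 and Itgam (CPM, linear axes from 0) in 19 cell classes, with 1 point for each library that had at least 20 cells of the class and a line at the mean. Pericyte-like libraries stand alone for Itga1 (595 to 1036) and endothelial-like libraries for Itga6 (278 to 556), while Itga10 and Itga11 spread over the skeletal classes.

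The 3 laminin-binding α subunits marked the cells of the vessel wall. Itga6, which pairs with Itgb1 or Itgb4 on basement membranes, was at 556, 457 and 404 CPM in the control libraries and 444, 350.4 and 278 in the knockout libraries in endothelial-like cells. Macrophage-like cells, the next class, had a mean Itga6 level of 67.6 ± 11.9 (SD, n = 6), and the highest value in any library of another class was 91.8. Itga3, a receptor for laminins of the vessel and epithelial basement membrane, was at 64.1, 73.8 and 62.6 CPM in the control libraries and 85.0, 32.8 and 44.2 in the knockout libraries in endothelial-like cells.

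The second class for Itga3, T and NK-like cells, had a mean of 5.78 ± 3.91. Itga7, known as the laminin receptor of muscle, stood alone in pericyte-like cells among the classes compared, which did not include muscle-like cells. It was at 205, 195 and 172 CPM in the control libraries and 234, 111 and 69.3 in the knockout libraries there. HTC-like cells were second for Itga7 at 12.1 CPM in control library 1 and 7.95, 8.86 and 6.26 in the knockout libraries, far under the lowest pericyte-like library. Itgb4, the β subunit that pairs only with Itga6, followed Itga6 into endothelial-like cells and had 127, 109 and 90.8 CPM in the control libraries and 89.2, 44.2 and 71.7 in the knockout libraries there. The second class for Itgb4 was chondrocyte-like cells, with a mean of 14.8 ± 7.0 and knockout library 2 lowest at 2.03.

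Of the α subunits that recognise the RGD motif of fibronectin and vitronectin, Itgav was highest in osteoclast-like cells, Itga8 in pericyte-like cells, and Itga5 and Itga2b in endothelial-like cells. Itgav, which pairs with several β subunits, was at 568, 388 and 400.3 CPM in the control libraries and 807, 261 and 256 in the knockout libraries in osteoclast-like cells, where its pair with Itgb3 is known for attachment to bone. Knockout libraries 2 and 3 were lowest, yet all 6 lay above the marrow stromal-like range that came next. Itgb3 itself was also highest in osteoclast-like cells, at 73.9, 118 and 99.6 CPM in the control libraries and 164, 96.2 and 65.2 in the knockout libraries. Knockout library 1, highest for both Itgav and Itgb3, had 39 osteoclast-like cells. Their median was 2480 UMIs, against 11227 to 32762 in the other libraries. Endothelial-like cells had Itgb3 at 47.6, 70.1 and 52.9 CPM in the control libraries and 94.7, 34.8 and 61.0 in the knockout libraries, lower than osteoclast-like cells in 6 of 6 libraries with overlapping ranges.

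Itga5, the fibronectin receptor subunit, was highest in endothelial-like cells (221 ± 43.1, n = 6). Fibroblast-like cells came second for Itga5 and were split by library, with 165, 117 and 358 CPM in the control libraries and 279, 39.6 and 39.9 in the knockout libraries. In knockout libraries 2 and 3 the fibroblast-like value of Itga5 was below the mean of chondrocyte-like cells (48.7 ± 12.3), and in control library 3 it exceeded every endothelial-like value. The fibroblast-like class joins a cluster led by Saa3 and a cycling cluster. The Saa3 share was 36.8%, 42% and 72.5% in the control libraries and 70.9%, 16.6% and 27.7% in the knockout libraries. The part of this mix in the Itga5 values was not tested. Itga8, the nephronectin receptor of smooth muscle-type cells, was at 143, 40.2 and 19.8 CPM in the control libraries and 77.7, 29.0 and 20.1 in the knockout libraries in pericyte-like cells, a spread from control library 1 down to control library 3 that overlaps with the tendon-like values.

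Itga2b, best known as the platelet receptor subunit, did not separate its first classes. It was at 15.0, 21.9 and 20.6 CPM in the control libraries and 17.1, 11.4 and 15.5 in the knockout libraries in endothelial-like cells and at 16.5, 18.6 and 7.73 CPM in the control libraries and 15.3, 8.20 and 19.2 in the knockout libraries in progenitor fibroblast-like cells, with overlapping ranges. The 7 platelet markers summed to 0 to 2.01 CPM in endothelial-like cells, so transcripts that define platelets were near 0 there. With other cluster resolutions (0.4 and 1.2) or without integration, HSPC-like cells became the highest class for Itga2b.

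Itga4, which binds VCAM-1 and fibronectin on leukocytes, was at 489, 346 and 175 CPM in the control libraries and 174, 278 and 101 in the knockout libraries in T and NK-like cells. Monocyte-like cells had Itga4 at 378, 325 and 279 CPM in the control libraries and 114, 237 and 123 in the knockout libraries, and these classes did not differ beyond their spread. In chondrocyte-like cells the mean of Itga4 was 1.08. Itga9, the related subunit that binds tenascin-C and osteopontin and is known from lymphatic vessels, was at 79.3, 49.4 and 74.9 CPM in the control libraries and 55.4, 81.5 and 52.9 in the knockout libraries in endothelial-like cells. The marrow stromal-like mean of Itga9 (56.2 ± 22.7) overlapped with it and the HTC-like mean was 1.01.

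The leukocyte α subunits were near 0 outside blood cells and differed between the named blood cell classes. Itgal, the α subunit of LFA-1 that holds lymphocytes to ICAM-1, was at 240.3, 195 and 207 CPM in the control libraries and 248, 179.7 and 105 in the knockout libraries in T and NK-like cells. Neutrophil-like cells had Itgal at 148, 178 and 171 CPM in the control libraries and 129, 161 and 119.6 in the knockout libraries and overlapped with them. An unnamed cluster of 469 cells, led by Ear2 and Adgre4, had Itgal among its leading genes and was not compared. Itgam (CD11b), the complement receptor subunit of myeloid cells, was at 551, 498 and 491 CPM in the control libraries and 707, 359.9 and 391 in the knockout libraries in neutrophil-like cells.

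Monocyte-like and macrophage-like cells followed for Itgam, and knockout library 1 was the highest library in all 3 classes. In monocyte-like cells Itgam was at 359, 319 and 381 CPM in the control libraries and 769, 217 and 231 in the knockout libraries. Itgax (CD11c), a marker of dendritic cells, was at 108 and 197 CPM in control libraries 2 and 3 and 90.1 and 89.2 in knockout libraries 2 and 3 in dendritic-like cells, all 4 values above the macrophage-like range. Itgae, which holds T cells and dendritic cells to E-cadherin, had 197 UMIs in all and was highest in T and NK-like cells, at 8.01, 27.9 and 37.3 CPM in the control libraries and 0, 14.7 and 20.9 in the knockout libraries. Itgal, Itgam and Itgax lie together on chromosome 7 but had 3 different highest classes among those compared.

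The promoter of Itgam is shown because its gene separated neutrophil-like cells from every stromal class, and because it holds the letters GAGGAA, the core of the site known for the myeloid factor PU.1, in 3 places. The window (chr7:128062390-128062689, GRCm38.p6, RefSeq, plus strand) runs from 250 bases before to 50 bases after the start of the gene. Capitals mark the matches on either strand, at positions -84, -15 and 33 from the start.
Itgam: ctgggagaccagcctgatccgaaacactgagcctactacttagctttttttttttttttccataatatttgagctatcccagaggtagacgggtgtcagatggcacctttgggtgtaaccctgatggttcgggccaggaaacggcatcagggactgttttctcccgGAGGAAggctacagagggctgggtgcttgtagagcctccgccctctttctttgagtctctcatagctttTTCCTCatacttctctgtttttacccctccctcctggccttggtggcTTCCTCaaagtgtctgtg

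Among the β subunits, Itgb1, the partner of most α subunits, was found in every class and was highest in pericyte-like cells, at 1606, 1169 and 1010.0 CPM in the control libraries and 1697, 753 and 989 in the knockout libraries. It was lower in endothelial-like cells in 6 of 6 libraries (839 ± 153), and lowest in neutrophil-like cells (68.6 ± 21.0). Itgb2, the common partner of Itgal, Itgam and Itgax, was at 472, 396 and 403 CPM in the control libraries and 318, 268 and 295 in the knockout libraries in neutrophil-like cells. The control libraries lay above the knockout libraries there, a difference of -0.36 ± 0.30 (SE) on the log2 scale that did not pass the test of edgeR (adjusted p = 1.00), and -0.45 without knockout library 3.

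Itgb7, which pairs with Itga4 and Itgae for homing to mucosa, was at 236 and 160.1 CPM in control libraries 2 and 3 and 229.6 and 228 in knockout libraries 2 and 3 in dendritic-like cells. T and NK-like cells had an Itgb7 mean of 181 ± 48.7, with overlapping ranges. Itgb5, a partner of Itgav for vitronectin, was highest in HTC-like cells, at 212 CPM in control library 1 and 181, 263 and 159.7 in the knockout libraries, but the stromal classes marrow stromal-like (193 ± 48.1), progenitor fibroblast-like (179.6 ± 26.9) and periosteal-like (178 ± 34.6) did not differ from them beyond their spread. Itgb8, a partner of Itgav that activates latent TGF-β, had means in progenitor fibroblast-like (14.3 ± 13.3) and T and NK-like cells (13.9 ± 11.2) that were nearly equal, with SDs almost as large.

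The talins and kindlins split between blood cells and stroma. Tln1, the talin found in all cells, had a highest class mean only 1.77 times its median class mean. Tln2, the talin of muscle and brain, was at 231, 153 and 146 CPM in the control libraries and 168, 154 and 175 in the knockout libraries in marrow stromal-like cells and had a mean of 150.2 ± 48.7 in fibroblast-like cells, with overlapping ranges. Fermt3, the kindlin of blood cells, was at 224, 227 and 235 CPM in the control libraries and 226, 250.2 and 188 in the knockout libraries in monocyte-like cells.

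Osteoclast-like cells had nearly the same Fermt3 level (206 ± 18.4) and chondrocyte-like cells a mean of 4.28. Fermt2, the kindlin of mesenchymal cells, showed the reverse and was at 571, 457 and 361 CPM in the control libraries and 443, 405 and 571 in the knockout libraries in pericyte-like cells. Marrow stromal-like cells (301 ± 41.8) were lower for Fermt2 in 6 of 6 libraries, and B-like cells had a mean of 3.57. The members of the complex of integrin-linked kinase were all highest in pericyte-like cells but broadly present, so that none reached 3 times its median class mean. Their pericyte-like means were 194 ± 34.2 for Ilk, the scaffold pseudokinase, 227 ± 67.4 for Lims1 (PINCH), which docks it to other adaptors, and 142 ± 18.2 for Parva (α-parvin), which binds actin, against median class means of 87.2, 94.2 and 49.6.

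Of the actin linkers, Vcl (vinculin), which binds talin under force, was at 501, 470.0 and 268 CPM in the control libraries and 380.1, 183 and 251 in the knockout libraries in pericyte-like cells. Tendon-like cells, second for Vcl, had 173 and 171 CPM in control libraries 1 and 2 and 86.7 in knockout library 3, below every pericyte-like library. Actn1, the α-actinin that bundles actin at adhesions, was also highest in pericyte-like cells, at 556, 369.7 and 334 CPM in the control libraries and 435, 307 and 308 in the knockout libraries.

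Neutrophil-like cells were second for Actn1 (274 ± 89.3) and lower in 6 of 6 libraries, with overlapping ranges. Zyx (zyxin), which repairs strained actin filaments, was instead highest in neutrophil-like cells, at 799, 678 and 508 CPM in the control libraries and 856, 361 and 312 in the knockout libraries. Pxn (paxillin), the docking protein of focal adhesions, had 216, 214 and 249.8 CPM in the control libraries and 140.2, 163 and 152 in the knockout libraries in neutrophil-like cells, above endothelial-like cells (134 ± 17.2) in 6 of 6 libraries. Ptk2 (focal adhesion kinase) was highest in endothelial-like cells (106 ± 14.9), only 2.58 times its median class mean, and chondrocyte-like cells had a mean of 52.3 ± 16.1.

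The promoters of Vcl and Fermt2 are shown because both genes were highest in pericyte-like cells and both windows hold a CArG box, the site known for serum response factor, marked in capitals. They lie at chr14:20929148-20929447 (plus strand, match from position -227) and chr14:45530016-45530315 (minus strand, match from position -204) of GRCm38.p6, from RefSeq, and also run from 250 bases before to 50 bases after the start.
Vcl: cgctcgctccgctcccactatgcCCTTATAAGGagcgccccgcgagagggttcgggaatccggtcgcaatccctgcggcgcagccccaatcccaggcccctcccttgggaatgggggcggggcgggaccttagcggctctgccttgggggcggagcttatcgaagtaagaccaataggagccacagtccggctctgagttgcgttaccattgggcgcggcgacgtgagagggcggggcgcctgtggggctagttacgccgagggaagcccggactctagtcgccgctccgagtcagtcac
Fermt2: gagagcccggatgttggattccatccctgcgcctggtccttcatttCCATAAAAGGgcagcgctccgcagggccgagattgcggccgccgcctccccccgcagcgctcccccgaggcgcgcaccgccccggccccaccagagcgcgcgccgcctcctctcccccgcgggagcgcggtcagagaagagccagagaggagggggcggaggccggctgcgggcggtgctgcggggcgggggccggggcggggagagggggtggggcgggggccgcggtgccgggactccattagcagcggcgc

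RefSeq windows were matched for 27 of the 38 members. Searching both strands, GAGGAA was found for 11 of these 27 genes, for 4 of 8 that were highest in a leukocyte or osteoclast class (3 of 7 without Itgav, which was highest in osteoclast-like cells) and for 2 of 8 that were highest in pericyte-like cells, against 31.3% of all 27025 genes with windows of this length. A CArG box was found for 3 of the 27, for 2 of 8 highest in pericyte-like cells and for 0 of 8 highest in a leukocyte or osteoclast class, against 1.81% of all genes, and the third match was in Itgb6. These matches describe the letters in the windows only.

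Single classes also held subsets that differed in their integrins. Osteoblast-like cells formed a cluster led by Bglap, the osteocalcin gene of mature osteoblasts, and a cluster led by Dmp1, Phex and Dkk1, genes known from osteocytes. Itgb3 was at 32.9, 42.3 and 40.3 CPM in the control libraries and 40.3 and 33.4 in knockout libraries 2 and 3 in the Dmp1 cluster. In the Bglap cluster Itgb3 was at 13.8, 9.47 and 8.41 CPM in the control libraries and 12.4, 6.15 and 4.51 in the knockout libraries, so the clusters did not overlap. Itga2 differed likewise, with 27.2, 46.6 and 22.6 CPM in the control libraries and 13.2 and 13.6 in knockout libraries 2 and 3 in the Dmp1 cluster and 0.55 to 2.40 in the Bglap cluster. For Itga10 they overlapped, with means of 143 and 133.

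Periosteal-like cells were divided by Itga10 and Itga1. The cluster led by Slc40a1 and Tnn had Itga10 at 104, 77.7 and 90.0 CPM in the control libraries and 117, 116 and 92.6 in the knockout libraries. The Penk cluster had Itga10 at 31.5, 28.7 and 20.1 CPM in the control libraries and 31.5, 28.6 and 22.1 in the knockout libraries, lower in 6 of 6 libraries without overlap, and it had the higher Itga1 mean (46.3 against 16.3). Among chondrocyte-like cells, apart from a shallow cluster of 399 cells, the cluster led by Smim5 and Cd24a had an Itga1 mean of 52.6 and an Itga11 mean of 5.94. A cluster with Sfrp5 and Ucma in the lead was lower for Itga1, at 14.3, and higher for Itga11, at 23.4, in the 5 libraries other than knockout library 2, and the ranges of both genes were separate.

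Endothelial-like clusters differed in Itgb4, Itga9 and Itga2, among others. In the largest cluster, led by the capillary gene Gpihbp1 and by Aplnr, Itgb4 was at 78.5, 69.3 and 56.5 CPM in the control libraries and 52.9, 17.8 and 59.7 in the knockout libraries. The cluster led by Selp, Ackr1 and Vwf, genes of venules, had Itgb4 at 248, 190.1 and 235 CPM in the control libraries and 148, 155 and 177 in the knockout libraries. The cluster led by Gja5, Sema3g and Gja4, genes of arteries, had Itgb4 at 239, 177 and 183 CPM in the control libraries and 182 and 183 in knockout libraries 2 and 3, so both lay above the Gpihbp1 cluster in every library.

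Itga1 was also higher in the Gja5 cluster than in the Gpihbp1 cluster (323 against 141 on average, 5 of 5 libraries), and Actn1 was highest in the Selp cluster (425 against 211). The cluster led by Ccl21a, Mmrn1, Lyve1 and Prox1, lymphatic genes, had Itga9 at 264 and 158 CPM in control libraries 2 and 3 and 178 in knockout library 3. These values exceeded those of every other endothelial-like cluster in the same 3 libraries. Itga2 was almost missing from the lymphatic gene cluster, at 0 and 2.73 CPM in control libraries 2 and 3 and 0 in knockout library 3, against a mean of 61.8 in the Gpihbp1 cluster of these libraries.

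**Figure D3:**
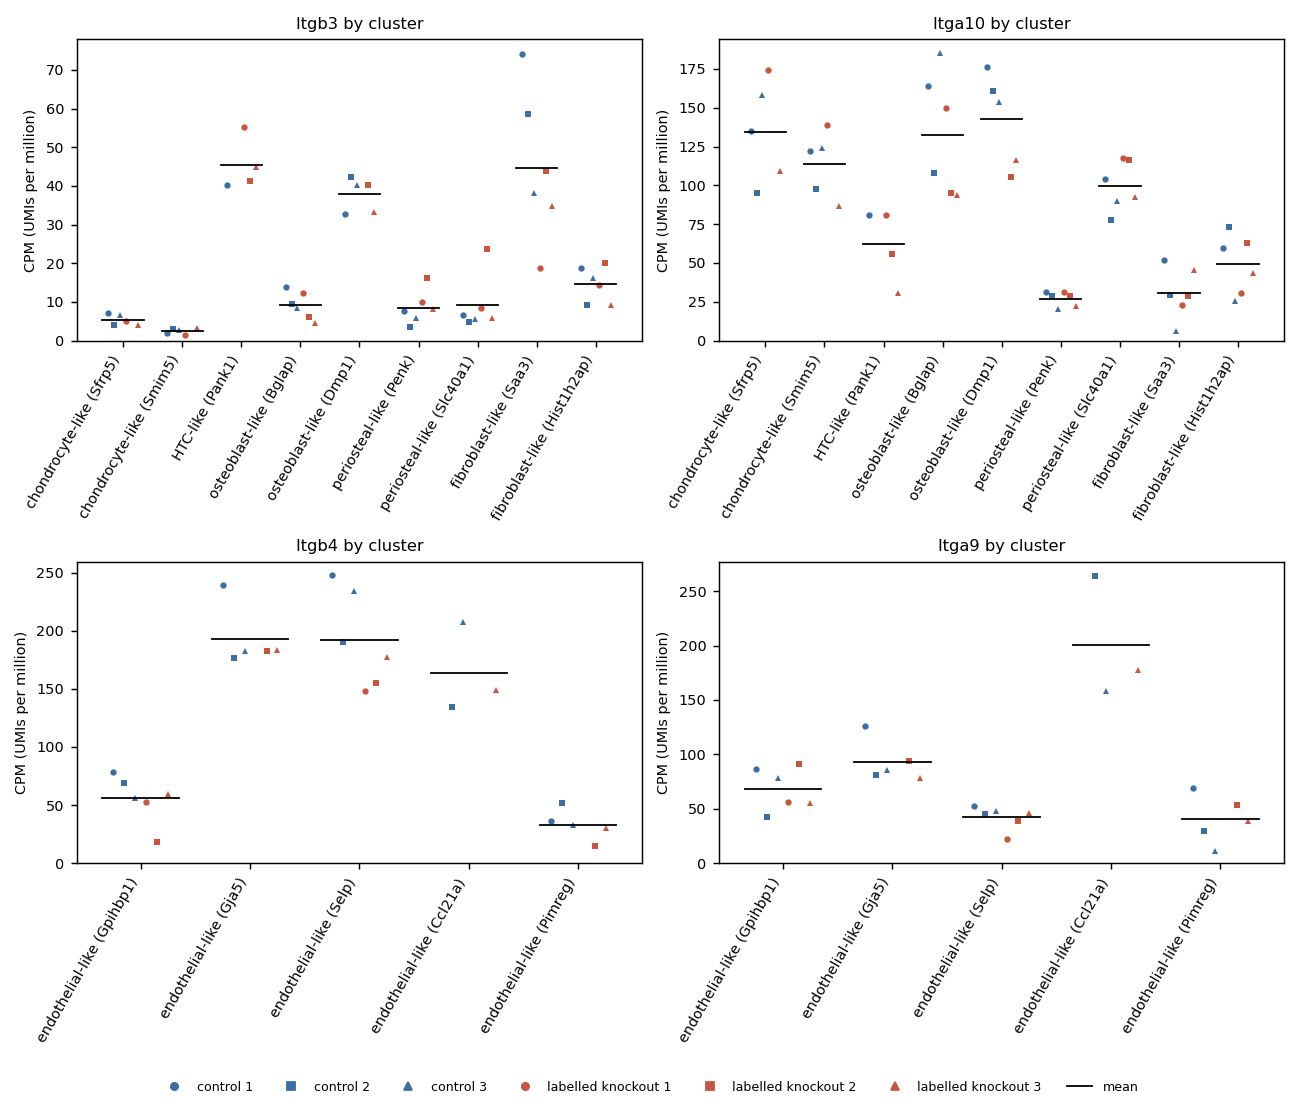
Levels of Itgb3 and Itga10 in clusters of skeletal cells and of Itgb4 and Itga9 in clusters of endothelial-like cells (CPM, linear axes from 0), named by class and leading gene, with 1 point per library and a line at the mean. Itgb3 is high in the HTC-like, Dmp1 and Saa3 clusters, Itgb4 in the Gja5, Selp and Ccl21a clusters, and Itga9 in the Ccl21a cluster.

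The macrophage-like cluster led by Fcrls and the complement genes C1qc and C1qa had Itga9 at 80.1, 128 and 65.7 CPM in the control libraries and 109, 82.5 and 98.4 in the knockout libraries. The cluster led by Gpnmb was lower for Itga9 in 6 of 6 libraries (mean 31.9) and higher for Itgax (69.2 against 15.6). The cycling macrophage-like cluster led by Ube2c had an Itgam mean of 86.7 against 289 in the Gpnmb cluster of the same libraries. Among neutrophil-like cells, the cluster led by Stfa2l1 and Il1b had a Zyx mean of 614 and an Itgax mean of 25.4, against 315 and 3.23 in the cluster led by Ltf, a granule gene of immature neutrophils, in the 4 libraries that held both. Vcl went the other way, with 91.8 in the Ltf cluster and 39.1 in the Stfa2l1 cluster. In fibroblast-like cells the inflammatory cluster led by Saa3 and Cxcl5 had Itgb3 at 74.2, 58.5 and 38.3 CPM in the control libraries and 18.7, 43.8 and 34.9 in the knockout libraries, above the cycling cluster led by Hist1h2ap in 6 of 6 libraries.

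HTC-like cells, the stage at which chondrocytes enlarge and make collagen X before bone replaces them, had more Itgb3 and Itgb5 and less Itgb4 than chondrocyte-like cells in every library compared, while the other 5 β subunits showed no such order. In the 4 libraries with at least 20 cells of both classes, 12 of 38 members were higher in HTC-like than in chondrocyte-like cells in every library (Ilk, Itga1, Itga6, Itga7, Itgav, Itgb3, Itgb5, Lims1, Parva, Tln1, Vcl and Zyx) and 4 were lower (Itga10, Itga5, Itgb4 and Ptk2). All 16 were among the 33 members with at least 50 UMIs in these cells. Of all 14694 genes with that many UMIs, 23.3% were higher and 13.9% lower in every library, so the share of members that were lower was near that of all genes. Itgb3 was at 40.1 CPM in control library 1 and 55.2, 41.3 and 44.8 in the knockout libraries in HTC-like cells. In chondrocyte-like cells Itgb3 was at 4.39, 3.47 and 5.59 CPM in the control libraries and 3.06, 8.11 and 3.68 in the knockout libraries, so that HTC-like cells had 9.44 times as much over the shared libraries. Itgb5 was 2.19 times as high, with 95.7, 75.1 and 103 CPM in the control libraries and 96.8, 95.3 and 85.0 in the knockout libraries in chondrocyte-like cells, and the ranges of both genes were separate.

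Itga10 had the opposite order, with 81.0 CPM in control library 1 and 80.9, 56.1 and 30.7 in the knockout libraries in HTC-like cells, 0.531 times the chondrocyte-like mean of the same libraries. Itgb4 had means of 3.58 in HTC-like against 12.7 in chondrocyte-like cells, with overlapping ranges. The adaptor Ilk (ratio 1.29), Lims1 (1.44) and Parva (1.47) were each higher in HTC-like cells, whereas Fermt2 was equal on average (ratio 1.01, higher in 2 of 4 libraries). In knockout library 2 each of the classes had only 21 cells.

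Whether the genotype label changes the integrins was tested first in the joined chondrocyte-like and HTC-like cells, where the Cre is meant to act. UMIs were summed per library, and the test was the two-sided quasi-likelihood test of edgeR, with Benjamini-Hochberg adjustment over all genes of the class. Of the 38 members, 33 passed the filter on low counts, and 0 of them had an adjusted p under 0.05. In the same fit 0 of 14289 genes passed (0%). At an unadjusted p under 0.05 there was 1 member, Itgb3, and 2.58% of all genes. The median log2 fold change of the 33 members was -0.19, against -0.02 for all genes, and 13 of the 33 were above 0. DESeq2 also called 0 members in every class fitted.

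**Figure D4:**
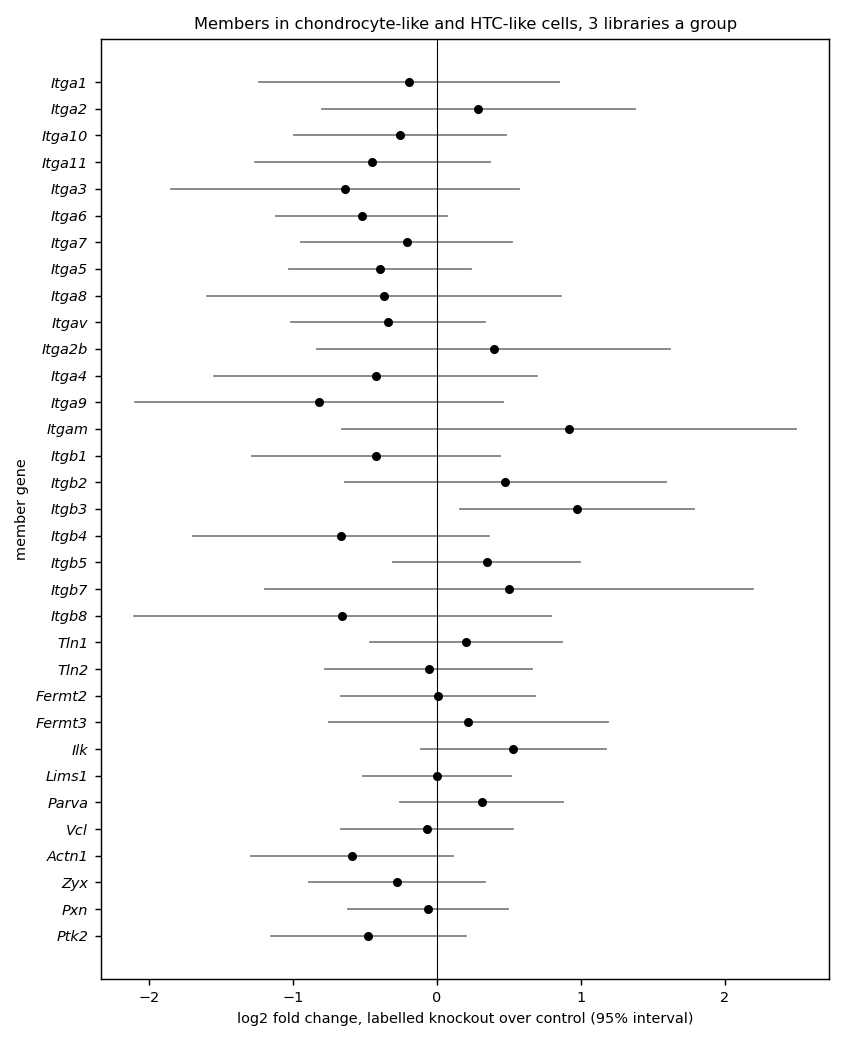
Log2 fold change, knockout over control libraries, of the 33 members tested in chondrocyte-like and HTC-like cells (points) with 95% confidence intervals (lines) from edgeR, 3 libraries per group. The interval of Itgb3 (0.16 to 1.79) lies to the right of 0 before adjustment, and every other interval includes 0.

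Itgb3 had the largest difference among the members. It was at 11, 5.71 and 5.99 CPM in the control libraries and 10.9, 21.6 and 14.2 in the knockout libraries, higher in 2 of the 3 knockout libraries than in every control library. The log2 fold change was 0.97 ± 0.36 (SE) with a 95% confidence interval of 0.16 to 1.79 (edgeR, unadjusted p = 0.0236, adjusted p = 1.00), and the value was 0.93 without knockout library 3 and 0.46 at a cluster resolution of 0.4. The share of HTC-like cells, which had more Itgb3, was 16.5%, 3.34% and 3.19% of these cells in the control libraries and 12.1%, 50% and 26.3% in the knockout libraries. Within chondrocyte-like cells alone Itgb3 ranged from 3.47 to 5.59 in the control and from 3.06 to 8.11 in the knockout libraries. Within HTC-like cells the single control value was 40.1, against knockout values of 41.3 to 55.2. The part of the cell mix in the difference was not tested.

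Itgam was next by size, at 1.15, 3.35 and 1.15 CPM in the control libraries and 5.98, 0 and 2.54 in the knockout libraries, with a log2 fold change of 0.92 ± 0.70 (95% interval -0.66 to 2.5, edgeR adjusted p = 1.00). Single libraries moved this value, to 0.23 without knockout library 1, 0.58 without control library 1 and 1.66 without control library 2, and it was 1.12 without knockout library 3. Itgam overlapped between the groups, and knockout library 2 had 0 UMIs, which allows up to 3.61 CPM (3 counts of 832105, counting error only). The 10 immune markers, all of them found, summed to 162, 858 and 471 CPM in the control libraries and 332, 1102 and 775 in the knockout libraries in the same cells, and the part of immune RNA in the value of Itgam was not tested. Itga9 was at 2.47, 2.73 and 3.45 CPM in the control libraries and 1.12, 0 and 2.18 in the knockout libraries, a log2 fold change of -0.82 ± 0.57 (95% interval -2.09 to 0.46, edgeR adjusted p = 1.00). It was -1.59 without knockout library 3, -0.53 without knockout library 1 and turned to 0.27 at a cluster resolution of 0.4. The libraries held at most 67 UMIs of Itga9 in these cells.

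The library values of 3 of the 33 members did not overlap between the groups, against 6.79% of all genes tested. Besides Itga9, these were Itga6, whose control library 3 and knockout library 1 were nearly equal, at 28.0, 28.7 and 23.7 CPM in the control libraries and 23.7, 14.4 and 15.5 in the knockout libraries, and Itgb4, at 16.1, 14.9 and 21.9 CPM in the control libraries and 14, 1.2 and 11.9 in the knockout libraries. All were lower in the knockout libraries, by log2 fold changes of -0.52 ± 0.26 for Itga6 and -0.67 ± 0.46 for Itgb4, and neither passed (edgeR adjusted p = 1.00 for both). Without knockout library 3 these were -0.45 and -0.86. The lowest value of Itgb4 was a single UMI in knockout library 2. The collagen receptor subunit Itga10 was at 119.7, 95.4 and 151 CPM in the control libraries and 145, 73.3 and 81.3 in the knockout libraries, with knockout libraries 2 and 3 below all controls and knockout library 1 among them (log2 fold change -0.26 ± 0.33, and -0.17 without knockout library 3). Itgb1 differed by -0.42 ± 0.38, Ilk by 0.53 ± 0.29 and Ptk2 by -0.48 ± 0.30 on the log2 scale. Without knockout library 3 these differences were -0.47, 0.55 and -0.36. In every library compared, HTC-like cells had less Itgb4, Itga10 and Ptk2 and more Ilk and Itga6 than chondrocyte-like cells. The share of HTC-like cells was highest in knockout libraries 2 and 3 (50% and 26.3%). The part of the cell mix in the differences of these members was not tested.

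**Figure D5:**
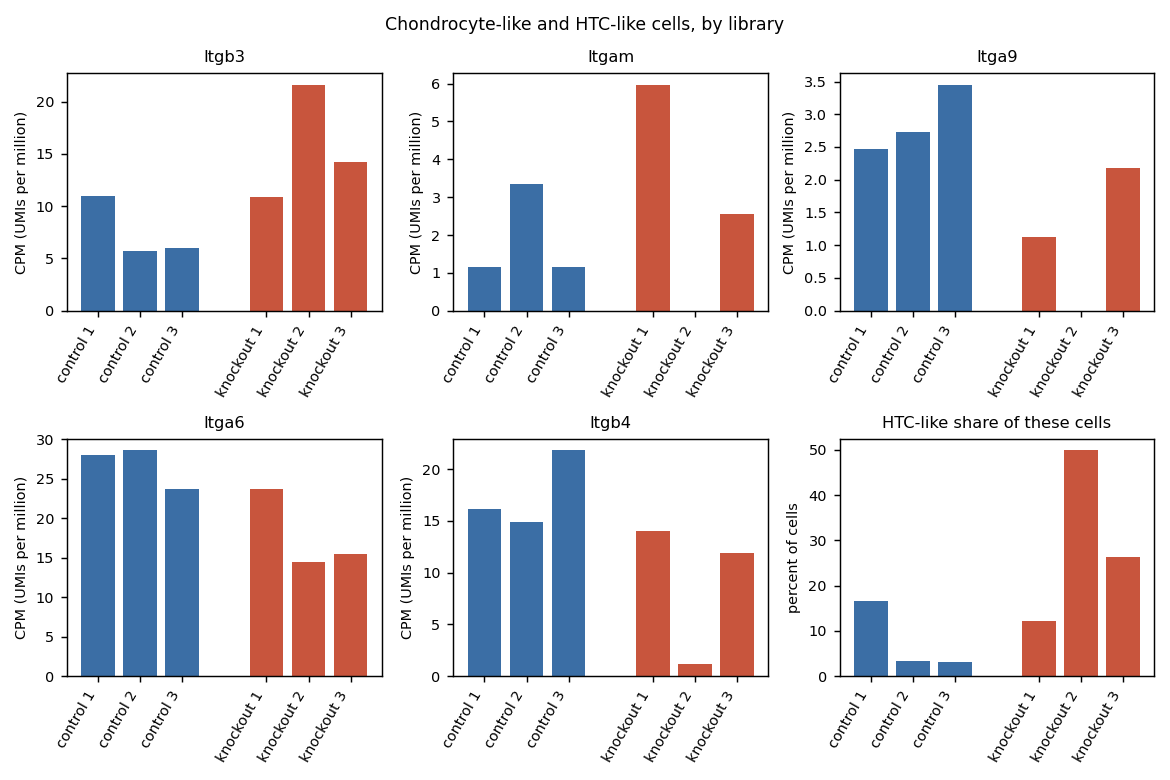
Levels of Itgb3, Itgam, Itga9, Itga6 and Itgb4 in chondrocyte-like and HTC-like cells (CPM, bars from 0) and the share of HTC-like cells among them (percent), 1 bar per library. Itgb3 and the HTC-like share are both highest in knockout library 2 (21.6 CPM and 50%), and Itgam and Itga9 have 0 UMIs there.

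In the other 14 classes that had at least 20 cells in at least 2 libraries of each group, edgeR also called 0 members. In 13 of these classes 0% of the genes tested passed at all. In HSPC-like cells, with 2 libraries against 2, the share was 0.0945% (9 of 9524 genes), and 5 of 24 members had an unadjusted p under 0.05, against 10.2% of all genes. They were Parva, at 1.34 and 1.04 CPM in control libraries 2 and 3 and 8.56 and 7.98 in knockout libraries 2 and 3, as well as Fermt2, Itga10, Itgb5 and Itga2b. The log2 fold change of Parva was 2.86 ± 0.59 (edgeR adjusted p = 0.225, and 3.03 without knockout library 3). It was 2.09 for Fermt2, 1.85 for Itga10, 1.52 for Itgb5 and -2.51 for Itga2b. Without knockout library 3 these were 1.33, 2.00, 1.18 and -4.40. The 18 integrin ligands tested in HSPC-like cells had a median log2 fold change of 1.12. The part of RNA carried from stromal cells in the values of members there was not tested. Without the filter on low counts 3 members passed there (Parva, Fermt2 and Itga2b, among 285 genes), and without knockout library 2 there were 4 (Pxn, Itgam, Itgb2 and Fermt2, among 364 genes), whereas without knockout library 3 no member passed.

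In the other 13 classes, 18 of 334 tests of a member in a class had an unadjusted p under 0.05 (5.39%, against 3.69% of the tests of all genes), 10 of them lower and 8 higher in the knockout libraries. In neutrophil-like cells Itgax was at 25.2, 15.7 and 29.3 CPM in the control libraries and 3.42, 8.40 and 5.28 in the knockout libraries, lower in every knockout library (-1.71 ± 0.47 on the log2 scale, edgeR adjusted p = 1.00, and -1.68 without knockout library 3). These values rest on 7, 71 and 36 UMIs in the control libraries and 4, 23 and 11 in the knockout libraries. The Ltf cluster, which had less Itgax than the Stfa2l1 cluster, held 9 of 41, 453 of 1805 and 144 of 655 of these cells in the control libraries. In the knockout libraries it held 9 of 208, 358 of 912 and 307 of 563, and the part of this mix in the difference was not tested. In marrow stromal-like cells Itga8 was at 15.8, 9.59 and 10.5 CPM in the control libraries and 7.65, 3.82 and 1.60 in the knockout libraries, lower in every knockout library (-1.63 ± 0.49, edgeR adjusted p = 0.84, and -1.22 without knockout library 3). Fibroblast-like cells had Itgb3 at 41.4, 27.3 and 32.2 CPM in the control libraries and 17.4, 24.0 and 15.2 in the knockout libraries, with every knockout library lower (-0.82 ± 0.27, edgeR adjusted p = 0.999, and -0.71 without knockout library 3), and the difference from the direction in chondrocyte-like and HTC-like cells was not tested. The Saa3 cluster, which had more Itgb3 than the Hist1h2ap cluster, made up 36.8%, 42% and 72.5% of the fibroblast-like cells in the control libraries and 70.9%, 16.6% and 27.7% in the knockout libraries. Within the Saa3 cluster Itgb3 was at 74.2, 58.5 and 38.3 CPM in the control libraries and 18.7, 43.8 and 34.9 in the knockout libraries, which overlap, and the part of the mix of clusters in the difference was not tested.

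In endothelial-like cells Itgb4 was at 127, 109 and 90.8 CPM in the control libraries and 89.2, 44.2 and 71.7 in the knockout libraries, lower in every knockout library without passing the adjustment (-0.62 ± 0.27, edgeR adjusted p = 0.797, and -0.73 without knockout library 3). The Selp cluster, which had more Itgb4 than the Gpihbp1 cluster, held 120 of 406, 523 of 1982 and 129 of 1037 of these cells in the control libraries. In the knockout libraries it held 33 of 142, 142 of 1433 and 125 of 922. The Gja5 cluster held 38, 173 and 53 cells in the control libraries and 19, 99 and 53 in the knockout libraries. The part of the mix of clusters in the difference was not tested. Among the differences in the other direction, Itga1 and Itga9 were higher in every knockout library of fibroblast-like cells (0.91 ± 0.35 and 0.98 ± 0.39, edgeR adjusted p = 0.999 for both), as was Itgb2 in periosteal-like cells (0.97 ± 0.37, edgeR adjusted p = 0.999). Without knockout library 3 these differences were 0.87, 0.91 and 1.07. Fermt2 was higher in every knockout library of neutrophil-like cells, by 1.13 ± 0.49 (edgeR adjusted p = 1.00), and by 0.58 without knockout library 3. It had 2, 35 and 9 UMIs there in the control libraries and 17, 23 and 47 in the knockout libraries. The part of RNA carried from stromal cells in this value was not tested. Others lower in every knockout library included Itga4 in monocyte-like (-0.98 ± 0.36), Itga11 in progenitor fibroblast-like (-0.89 ± 0.30) and Itga9 in marrow stromal-like cells (-0.77 ± 0.29). Without knockout library 3 these were -0.85, -0.90 and -0.55, and none passed the adjustment. The genes named for these differences were singled out after their values were seen.

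Other genes of the pathway were counted in the same fits. Of 37 other adhesion proteins, such as tensins, Vasp and the Rap1 proteins, 35 were tested in chondrocyte-like and HTC-like cells and 0 passed in either direction (median log2 fold change -0.04). Of 24 integrin ligands 21 were tested, and 0 passed (median -0.34). Among the ligands, Fn1 (fibronectin) was at 16122, 17531 and 15678 CPM in the control libraries and 14705, 4781 and 7085 in the knockout libraries. Every knockout library was below every control library for Fn1, knockout library 1 least so (log2 fold change -0.88 ± 0.52, edgeR adjusted p = 1.00). Spp1 (osteopontin), a ligand of Itgav, Itgb3 and Itga9 receptors, was at 2890.4, 2239 and 10398 CPM in the control libraries and 4828, 27381 and 9290.2 in the knockout libraries, with overlapping groups (1.43 ± 0.78, adjusted p = 1.00). In all 15 classes 0 genes of these lists and 0 of the 10 immune markers passed. The median log2 fold change of the immune markers was 0.54 in chondrocyte-like and HTC-like cells, 1.02 in fibroblast-like cells, 0.87 in periosteal-like cells, 1.05 in endothelial-like cells and 1.27 in pericyte-like cells, and how far immune RNA entered the values of members in those classes was not tested.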

How the data were processed

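The authors deposited UMI counts per gene and cell barcode for filtered barcodes, not normalized. The headers of these counts name Cell Ranger 6.1.1 or 6.1.2. The gene list of replicate 3 differed in both groups, so libraries were joined by gene identifier. A cell was kept if it had 500 or more UMIs, 200 or more genes and no more than 20% of its UMIs from mitochondrial genes. Scrublet's own threshold called 0 cells in 3 libraries, so doublets were taken as the cells with the highest scores, at 0.8% of a library for every 1000 cells in it. Libraries were integrated with Seurat 5.3.0 (RPCA) on 30 principal components of 2000 variable genes without the members and clustered with leidenalg 0.10.2 (resolution 0.8), all cells in a first round and stromal cells in another. A cluster needed 3 markers to be named, and these naming thresholds were set with the data seen. Counts were summed per library and class. The quasi-likelihood test of edgeR 4.0.16 in R 4.3.3 (TMM scaling, filterByExpr, threshold 0.05) had no covariate and was checked on simulated counts.

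Members and gene lists were chosen with earlier results of these data known. Values per library are given for members past the threshold, otherwise for the 3 tested members with the largest change in chondrocyte-like and HTC-like cells, and for members whose highest class mean was at least 3 times the median class mean. Others are summarised or named as chosen after their values were seen. The alternatives were DESeq2 1.42.0, upper-quartile scaling, no filter on low counts, a replicate block, each library or replicate 3 left out, a stricter filter on cells, removal of more doublets, resolutions of 0.4 and 1.2, and no integration. Gene positions and promoters are from GRCm38.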

Additional observations from a re-analysis of the deposited data

Results flagged for a closer look

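The members listed here had every knockout library above every control library in one class and every knockout library below every control library in another. In none of these cases was the difference between the classes tested, and the values are the gaps between the log2 fold changes of the classes. Groups did not overlap for 4.97% of all genes tested in periosteal-like, 5.49% in fibroblast-like, 9.44% in pericyte-like and 12% in T and NK-like cells. This share was 6.79% in chondrocyte-like and HTC-like, 8.3% in neutrophil-like, 10.6% in marrow stromal-like and 11.3% in endothelial-like cells. How many of all genes had such opposite directions was not counted. Itga6 was higher in pericyte-like cells of the knockout libraries and lower in the classes named next. The gaps were 1.09 to chondrocyte-like and HTC-like cells, 0.95 to T and NK-like cells and 1.52 to periosteal-like cells. Itga9 was higher in fibroblast-like cells, with gaps of 1.80 to chondrocyte-like and HTC-like cells and 1.75 to marrow stromal-like cells. Itgb2 was higher in fibroblast-like cells, with gaps of 1.01 to T and NK-like cells and 1.16 to neutrophil-like cells, and higher in periosteal-like cells, with gaps of 1.19 and 1.33 to the same classes. The 10 immune markers had median log2 fold changes of 1.02 in fibroblast-like and 0.87 in periosteal-like cells, against 0.26 in T and NK-like and 0.13 in neutrophil-like cells, and their part in the values of Itgb2 was not tested. Pxn was higher in pericyte-like cells, with gaps of 0.61 to endothelial-like cells and 0.80 to neutrophil-like cells.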

How the results depend on the processing

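Under the alternatives, 0 members passed in chondrocyte-like and HTC-like cells, and none in any other class except HSPC-like cells. There 3 members passed without a filter on low counts. When single libraries were left out, 0 to 4 passed in HSPC-like cells, the 4 without knockout library 2, a fit of 2 libraries against 1 in which the lone library is assumed to vary like the controls. The cause was not tested. Itga9 changed sign in chondrocyte-like and HTC-like cells at a resolution of 0.4 (log2 fold change 0.27), and over 16 alternatives ranged from -1.59 to 0.27, Itgam from 0.23 to 1.66 and Itgb3 from 0.46 to 1.33, with adjusted p of at least 0.73, 0.825 and 0.339 (edgeR or DESeq2). Between 30 and 36 of the 36 ranked members kept their highest class, and those that changed were Itga11, Itga2b, Itga4, Itga9, Itgb5, Itgb8 and Tln2. Replicate numbers did not pair all libraries in chondrocyte-like and HTC-like cells (correlation of deviations 0.26, -0.10 and 0.003). Each group had 1 of 3 libraries correlated best with its own number there. The replicate 1 libraries of both groups did deviate together in several other classes. Their correlation was 0.46 in osteoblast-like, 0.31 in endothelial-like and 0.29 in periosteal-like cells, but -0.03 in fibroblast-like cells. Over all barcodes they also had the lowest medians of UMIs per barcode, 2554 and 2728.5. Within several classes they were instead the deepest, with medians of 29063 and 29606.5 in osteoblast-like cells against 7234 to 16272 in the other libraries. In endothelial-like cells their medians overlapped with the others, and in osteoclast-like cells knockout library 1 was the shallowest (2480). With the replicate number as a block, 0 members passed in each of the 15 classes, and Itgb3 had a log2 fold change of 1.00. In HSPC-like cells, where the correlation was -0.18, the crossed pairing, added after seeing the data, also called 0 members (5 genes in all, against 14 with the numbers as given). Leaving out replicate 3 left no fit for HSPC-like and dendritic-like cells, and periosteal-like cells were not found at a resolution of 0.4 nor marrow stromal-like cells at 1.2 or without integration. Depth limited the low members, since 1 UMI was 1.2 CPM in knockout library 2.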
